A study of Mus musculus with 8 samples.

Results

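The guanylate-binding protein genes Gbp2, Gbp3, Gbp4 and Gbp5, the immunity-related GTPase genes Iigp1, Igtp, Irgm1 and Irgm2, and Irf1, the gene of a transcription factor that helps induce them, were followed in alveolar macrophages of naive and tumor-bearing mouse lungs. The 9 genes were chosen by symbol, and all 9 were among the 12701 genes of the deposited expression table and among the 11273 genes tested. RNA sequencing libraries were made from 20000 macrophages sorted by flow cytometry from C57BL/6 mice, with 3 libraries from naive mice, 2 from lungs taken 15 days after KP tumor cells were injected (d15) and 3 from lungs labelled day 35 (d35). KP cells, a lung adenocarcinoma line, went into the tail vein, so the tumors were seeded from the blood and did not start from lung epithelium. The growth protocol gives harvests between days 15 and 30, so the later day is uncertain, and it names KP and KP-GFP cells without saying which a mouse received. Naive mice carried no tumor. The sources used here give neither the age nor the sex of the mice, nor whether each library stands for its own mouse, so p-values cover the spread between libraries only, which may be technical.

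Interferon gamma, released mainly by activated T cells and natural killer cells, binds the receptor chains IFNGR1 and IFNGR2 and acts through the kinases JAK1 and JAK2. Transcription factors activated by these kinases bind palindromic sites called GAS, and one of the first products, IRF1, binds repeats called ISRE in the promoters of further genes. Guanylate-binding proteins are dynamin-like GTPases that assemble on pathogen vacuoles and on bacteria and can trigger inflammasomes. Immunity-related GTPases are abundant in mice. Iigp1 encodes an effector that damages vacuole membranes, while Irgm1, Irgm2 and Igtp encode regulatory members that sit on the cell's own membranes and hold the effectors inactive there. Macrophages are a main site of action of both families.

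The libraries held between 27465745 and 39572173 reads in the table. The macrophage markers Siglecf, Itgax, Marco, Mertk and Cd68 were present in all groups, and the summed level of 12 alveolar macrophage markers was between 66353 and 71508 scaled CPM in naive, 85747 and 85846 in d15 and 91516 and 114015 in d35 libraries. Lyz2 and Chil3, neither of which passed at d35 by the test described below, made up between 91.4% and 94.4% of this sum. The other 10 markers summed to between 5610 and 5974 scaled CPM in naive, 6504 and 6741 in d15 and 6156 and 7067 in d35 libraries. Of the 12, Cd68, Ear2 and Car4 rose at d35 and Siglecf (591 ± 47.1 scaled CPM at d35 and 719 ± 36.6 in naive libraries) and Cidec (371 ± 33.0 and 503 ± 74.2) fell. Marco did not pass, but lay between 155 and 665 scaled CPM in d35 libraries, against 372 to 411 in naive libraries. Scaled CPM is the authors' value per gene, made from reads with a half-read offset and a scaled library size. Intervals of read counts given below are exact 95% binomial (Clopper-Pearson) intervals and cover counting error only.

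Promoter sequences are shown for the members that have one in the reference tables, since the motifs named above are read there. Of the 9 genes, 7 have a promoter window in RefSeq's tables (GRCm38.p6), covering 250 bases before to 50 bases after a start. A GAS-like motif (TTCNNNGAA, which reads the same on both strands) lay in the windows of 4 of these 7 genes, namely Gbp5, Igtp, Irgm2 and Irf1. It lay in 8.3% of all 32851 windows and in at least 1 window of 9.55% of 27025 genes. An ISRE-like motif (GAAA, any 2 bases and GAAA again, on either strand) lay in the windows of 6 of the 7, all but Irf1, against 3.44% of all windows and 3.99% of all genes. A match is a description of the letters and does not show binding. The 80 bases around the match nearest to the start are given 5′ to 3′ on each gene's own strand, with every GAS-like or ISRE-like match in capitals.
Gbp2, chr3:142620569-142620648, plus strand: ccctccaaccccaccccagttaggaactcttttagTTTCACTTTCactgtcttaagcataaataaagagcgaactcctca
Gbp3, chr3:142559970-142560049, plus strand: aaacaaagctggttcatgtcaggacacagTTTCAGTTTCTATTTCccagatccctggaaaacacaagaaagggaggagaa
Gbp5, chr3:142496846-142496925, plus strand: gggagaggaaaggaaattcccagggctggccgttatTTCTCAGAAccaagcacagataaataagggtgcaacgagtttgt
Irgm1, chr11:48871400-48871479, minus strand: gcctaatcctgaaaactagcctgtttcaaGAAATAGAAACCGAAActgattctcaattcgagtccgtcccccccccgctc
Igtp, chr11:58199487-58199566, plus strand: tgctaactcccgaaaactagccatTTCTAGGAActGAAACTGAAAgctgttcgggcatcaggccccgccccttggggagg
Irgm2, chr11:58214878-58214957, plus strand: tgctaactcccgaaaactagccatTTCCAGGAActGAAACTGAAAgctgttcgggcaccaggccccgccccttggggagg
Irf1, chr11:53769888-53769967, plus strand: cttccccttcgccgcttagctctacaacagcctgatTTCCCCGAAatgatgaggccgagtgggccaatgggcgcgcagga
Gbp3 and Irgm1 each carry 2 overlapping ISRE-like matches, so the motif repeats without a gap there. Igtp and Irgm2 carry a GAS-like and an ISRE-like match side by side, and their stretches were identical at 78 of 80 bases. Over their full 300-base windows the likeness was lower, with 247 identical, 17 mismatched and 72 gapped positions in the alignment. In Gbp5 the ISRE-like match lies 165 bases before the start, outside the stretch shown. Irf1 carries a GAS-like match 90 bases before its start and no ISRE-like match in its windows.

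At d35, 8 of the 9 genes rose over naive macrophages and none fell, against 9.86% of all tested genes that rose, 6.32% that fell and 16.2% that changed. Scaled by total reads alone, the balance over all genes turned, with 5.86% that rose and 14.6% that fell at d35 and a median log2 fold change of -0.11, while 8 members still rose with a median of 0.77. Iigp1, the effector GTPase, showed the largest change, a ratio of mean levels of 10.0, followed by Gbp3 at 3.65, Gbp4 at 3.00 and Gbp2 at 2.66. Irgm1, Irf1 and Igtp rose by less, with ratios of 1.73, 1.69 and 1.54. Irgm2, at 1.29, was the member that did not pass. Tests are limma's on log2(scaled CPM + 1) with all 8 libraries and Benjamini-Hochberg adjustment over the 11273 genes, and this log2 scale understates changes of low genes. The median log2 fold change of the 9 genes was 0.85, beside a median of -0.002 over all tested genes.

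Gbp2 encodes a guanylate-binding protein that mouse macrophages load onto parasite vacuoles and bacteria. It lies on chromosome 3 at 142620602 to 142638008. Its level was 118, 73.7 and 119 scaled CPM in d35 libraries, against 38.5, 36.9 and 41.3 in naive libraries. The groups did not overlap, which held for 8 of the 9 members and for 20.7% of tested genes in this direction, and the lowest d35 library was replicate 2. The log2 fold change was 1.36 ± 0.16 (SE, limma adjusted p = 0.00061).

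Gbp3, also on chromosome 3 (142560026 to 142573209), was at 49.2, 21.6 and 43.0 scaled CPM in d35 libraries, against 8.02, 11.9 and 11.2 in naive libraries. All 3 d35 libraries lay above the naive ones, and replicate 2 was again the lowest of them. This was a log2 fold change of 1.71 ± 0.26 (SE, limma adjusted p = 0.00313).

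Gbp5, on the same chromosome (142493978 to 142522344), encodes a protein reported to promote NLRP3 inflammasome assembly. It stayed low, at 7.03, 3.73 and 5.45 scaled CPM in d35 libraries and 3.68, 1.72 and 2.28 in naive libraries. The nearest libraries, d35 replicate 2 with 122 reads (95% interval 101.3 to 145.7) and naive replicate 1 with 109 reads (89.5 to 131.5), overlapped within counting error. Its log2 fold change was 0.85 ± 0.25 (SE, limma adjusted p = 0.0423), and the call ended in 9 of the 20 alternatives, namely edgeR's quasi-likelihood test, the naive and d35 libraries alone, the removed length trend, and leaving out naive replicate 2, naive replicate 3, d15 replicate A, d15 replicate B, d35 replicate 1 or d35 replicate 3.

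Gbp4 belongs to the second guanylate-binding protein cluster, on chromosome 5 (105115767 to 105139586). It was at 13.7, 5.80 and 11.5 scaled CPM in d35 libraries, against 1.36, 6.16 and 2.81 in naive libraries. Naive replicate 2, with 249 reads, lay above d35 replicate 2, with 190 reads, so the groups overlapped. In log2 terms the change was 1.42 ± 0.38 (SE, limma adjusted p = 0.0299). The call ended in 7 of the 20 alternatives, namely DESeq2, limma-voom, the replicate block and leaving out naive replicate 1, naive replicate 3, d35 replicate 1 or d35 replicate 3. The annotated spans of Gbp4, Gbp8 and Gbp9 overlap, and 12.8% of the 50-base stretches of the Gbp4 transcript also occur in another gene, so its reads may be split.

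Iigp1 was nearly silent in naive macrophages. It had 16.8, 5.4 and 20.3 scaled CPM in d35 libraries, against 0.757, 1.25 and 2.24 in naive libraries. In reads, these were 485, 177 and 775 in d35 libraries and 22, 50 and 63 in naive libraries, and the 95% intervals of the nearest libraries, 151.9 to 205.1 for d35 replicate 2 and 48.4 to 80.6 for naive replicate 3, did not meet. On the log2 scale the change was 2.52 ± 0.39 (SE, limma adjusted p = 0.00325), the 48th largest rise of all tested genes.

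Irgm1, on chromosome 11 at 48861968 to 48871683, encodes the regulatory GTPase of lysosomes and Golgi membranes. It was at 68.8, 50.5 and 70.8 scaled CPM in d35 libraries and 37.5, 37.6 and 34.7 in naive libraries, with no overlap. The fitted log2 change was 0.76 ± 0.12 (SE, limma adjusted p = 0.0033).

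Igtp, which encodes the regulatory GTPase also called Irgm3, was at 39.4, 31.2 and 35.7 scaled CPM in d35 libraries and 22.1, 24.1 and 23.0 in naive libraries. The lowest d35 library lay above the highest naive one. Its log2 change was 0.59 ± 0.10 (SE, limma adjusted p = 0.00518).

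Irgm2, whose 80-base promoter stretch is nearly that of Igtp, was at 23.1, 17.6 and 25.1 scaled CPM in d35 libraries and 16.6, 17.2 and 17.5 in naive libraries. The d35 libraries lay above the naive ones, but replicate 2 by only a small margin, with 579 reads (532.8 to 628.1). The log2 fold change of 0.33 (95% confidence interval 0.02 to 0.64) did not pass (limma adjusted p = 0.134). Igtp and Irgm2 are neighbours on chromosome 11 whose annotations overlap (58199556 to 58207591 and 58199618 to 58222782), and 12.3% of the 50-base stretches of Igtp occur in Irgm2, so the division of reads between them is uncertain. The difference between their fold changes was not tested.

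Irf1, on chromosome 11 at 53770014 to 53778374, was at 108, 77.0 and 111 scaled CPM in d35 libraries and 59.1, 62.4 and 53.4 in naive libraries. The groups did not overlap. The log2 fold change was 0.73 ± 0.13 (SE, limma adjusted p = 0.00569). The rises of Gbp2, Gbp3, Iigp1, Igtp, Irgm1 and Irf1 were called under all alternatives in which the gene was tested.

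**Figure D1:**
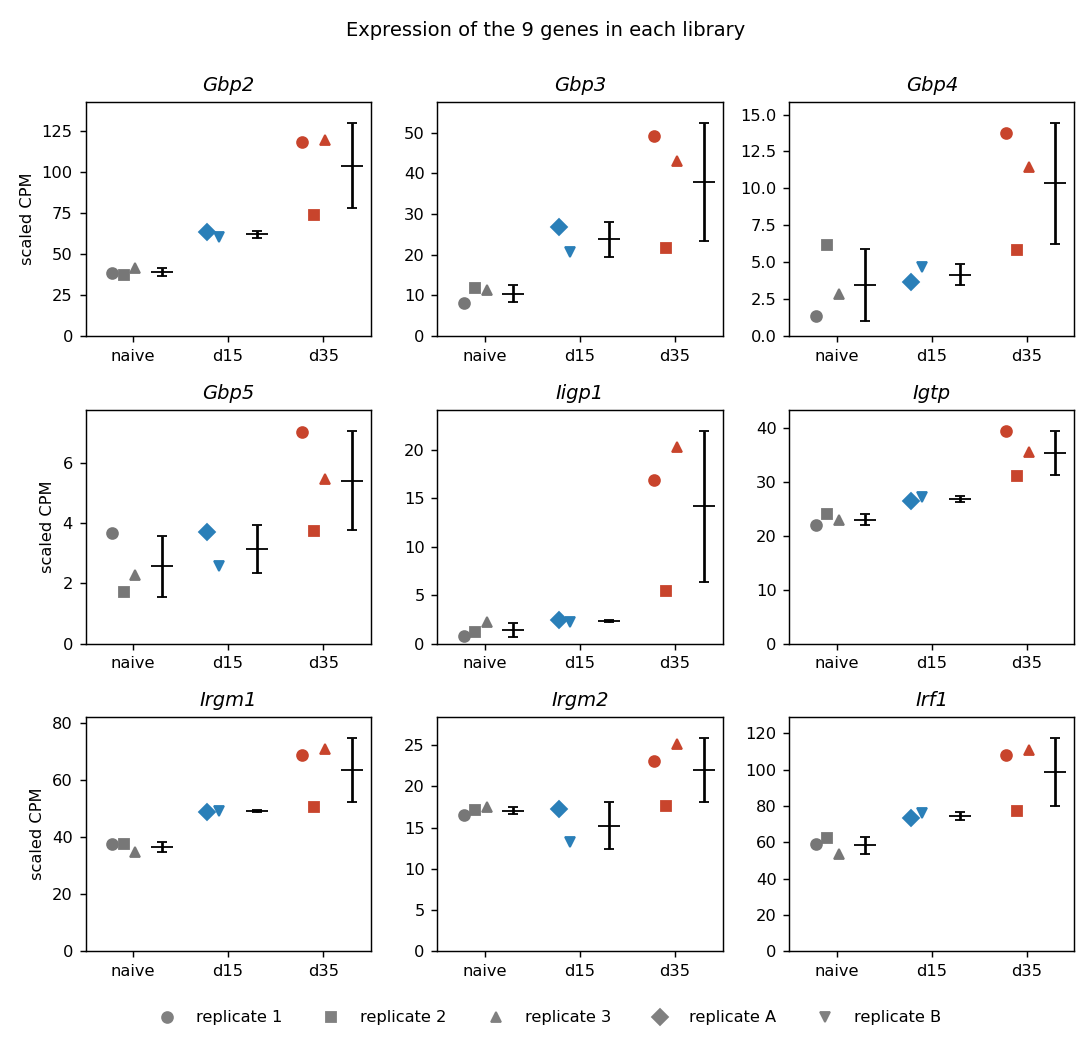
Scaled CPM (y axis, from 0) of each of the 9 genes in naive, d15 and d35 libraries, with a marker per library and the group mean ± SD as a bar (n = 3, 2 and 3). In every panel d35 replicate 2 (square) is the lowest of the d35 libraries, and in 8 of the 9 panels, all but Gbp4, it still lies above the naive libraries.

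The d35 libraries were not alike. Replicate 2 was the lowest of the 3 for all 9 members, while it was lowest for 75.2% of the 1112 genes that rose at d35 and for 32.9% of all tested genes. Relative to the naive mean, the median log2 shift of the members was 1.21, 0.46 and 0.94 in d35 replicates 1, 2 and 3, and 0.41 and 0.42 in d15 replicates A and B. Thus d35 replicate 2 lay close to the d15 libraries on this measure. On the first principal component of all tested genes, which held 53.1% of the variance, it also lay between the groups, at 14.3, against 36.6 and 30.2 for the other d35 libraries, -11.1 and -11.8 for d15 and -21.2 to -18.3 for naive libraries. The second component held 17.5% of the variance. There it lay at 4.08, with the other d35 libraries at 5.65 and -2.88, away from d15 at -18.4 and -21.7. Naive libraries lay between 8.4 and 15.8. Without d35 replicate 2, all 9 members rose at d35.

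At d15 none of the 9 genes passed limma's test, against 2.37% of tested genes that rose, 2% that fell and 4.37% that changed. With scaling by total reads alone these were 1.37% and 3.17%, and again no member passed. Of the 9 differences 8 were positive, 4 had an unadjusted p under 0.05, and the libraries of 6 members lay above all naive libraries, which was so for 25.9% of tested genes. Gbp3 was at 26.8 and 20.8 scaled CPM at d15, and 8.02, 11.9 and 11.2 in naive libraries. This log2 fold change of 1.13 ± 0.29 had a limma adjusted p of 0.0536. Gbp2 was at 63.2 and 60.5 at d15, against 38.5, 36.9 and 41.3 in naive libraries (log2 fold change 0.66 ± 0.17, limma adjusted p = 0.0563). Both genes lay just short of the threshold, and their d15 and naive libraries did not overlap.

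The authors' deposited table gives another result for these genes. There, Gbp3 (log2 fold change 1.16, adjusted p = 0.0155) and Gbp2 (0.65, adjusted p = 0.0204) passed at d15 and the other 7 members did not, against 1.67% of its 10778 genes that rose. Among the tools run here, edgeR's quasi-likelihood test called none of the 9 and limma-voom none, while DESeq2 called 3, namely Gbp2, Gbp3 and Irgm1. A limma fit of the naive and d15 libraries alone called these and Irf1, as did the fit without d35 replicate 2.

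Among the other members, Irgm1 was at 49.0 and 49.3 scaled CPM at d15, against 37.5, 37.6 and 34.7 in naive libraries (log2 fold change 0.42 ± 0.13, limma adjusted p = 0.0837). Irf1 was at 73.1 and 76.1 at d15, against 59.1, 62.4 and 53.4 in naive libraries (0.35 ± 0.14, limma adjusted p = 0.146). The d15 libraries of both genes lay above the naive ones by less than those of Gbp2 and Gbp3. Igtp was at 26.5 and 27.2 at d15 and 22.1 to 24.1 in naive libraries (limma adjusted p = 0.256). Iigp1, with 2.40 and 2.26 at d15 and 0.757 to 2.24 in naive libraries, did not overlap and had a ratio of mean levels of 1.64, but its log2 fold change of 0.51 had a 95% confidence interval between -0.45 and 1.47 (limma adjusted p = 0.497). Gbp4 and Gbp5 overlapped with naive libraries, at 3.64 and 4.69 and at 3.70 and 2.56. Irgm2 was at 17.2 and 13.3, and its log2 fold change of -0.16 was the negative one (95% confidence interval -0.51 to 0.19).

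Between the times, 2 members were higher at d35 than at d15 by limma, Iigp1 and Gbp2, against 4.59% of tested genes that rose, 2.8% that fell and 7.39% that changed. Scaled by total reads alone, 4% rose and 4.11% fell, and 2 members passed. The Iigp1 level was at 16.8, 5.4 and 20.3 scaled CPM in d35 libraries and 2.40 and 2.26 in d15 libraries, a log2 fold change of 2.01 ± 0.44 (SE, limma adjusted p = 0.0204). The Gbp2 level was at 118, 73.7 and 119 in d35 libraries and 63.2 and 60.5 in d15 libraries (0.70 ± 0.17, limma adjusted p = 0.0348). The other 7 were also positive, between 0.35 for Irgm1 and 1.07 for Gbp4, without passing. Gbp3, with 0.58 (95% confidence interval -0.06 to 1.23), was the member whose d15 libraries (26.8 and 20.8) lay around the lowest d35 library (21.6). The libraries of the other 8 members did not overlap between the times, as was so for 19% of tested genes in this direction. The count of 2 was 7 without d35 replicate 2 and 0 without d15 replicate A, d15 replicate B or d35 replicate 1. It was 1 without d35 replicate 3 or any of the 3 naive libraries. All 3 comparisons draw on the same libraries and are not independent of each other.

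**Figure D2:**
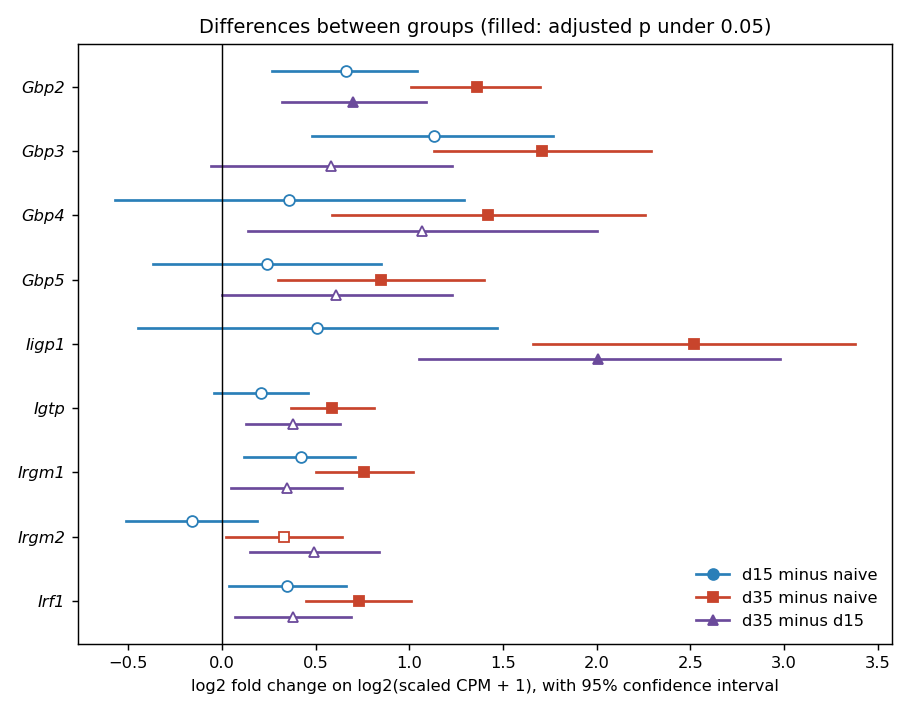
Log2 fold changes (x axis, on log2(scaled CPM + 1)) of each gene in the 3 comparisons with 95% confidence intervals from limma. Filled markers, adjusted p under 0.05, are found for 8 genes in the d35 minus naive comparison, for none in the d15 minus naive comparison and for Gbp2 and Iigp1 between d35 and d15.

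The order of the genes by level changed with the group. Levels per kilobase of annotated exon put Irf1 first in naive macrophages, at 17.5 ± 1.36 scaled CPM per kb (SD, n = 3), then Irgm1 at 15.9 ± 0.73 and Gbp2 at 15.5 ± 0.88, 3 genes whose means lie within a standard deviation or so of their neighbour. Igtp followed at 11.4 ± 0.48, Irgm2 at 4.63 ± 0.12 and Gbp3 at 3.40 ± 0.68. Gbp5, Gbp4 and Iigp1 were lowest, at 0.84 ± 0.33, 0.76 ± 0.54 and 0.45 ± 0.24, and did not differ beyond their spread. At d15 Gbp2 led at 24.6 ± 0.77 (SD, n = 2), then Irf1 at 22.4 ± 0.64, Irgm1 at 21.3 ± 0.10 and Igtp at 13.3 ± 0.26. Gbp3 was at 7.78 ± 1.39, above Irgm2 at 4.13 ± 0.76, and Gbp5, Gbp4 and Iigp1 were at 1.03 ± 0.26, 0.92 ± 0.16 and 0.74 ± 0.03.

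At d35 Gbp2 was at 41.2 ± 10.3 scaled CPM per kb (SD, n = 3), above Irf1 at 29.5 ± 5.59 and Irgm1 at 27.5 ± 4.86, whose spreads overlap. Igtp was at 17.5 ± 2.05, Gbp3 at 12.4 ± 4.74 and Irgm2 at 5.95 ± 1.05. Iigp1 had moved off the last place, with 4.53 ± 2.49, while Gbp4 and Gbp5 were at 2.28 ± 0.90 and 1.77 ± 0.54. Adjacent genes in this order overlapped within their SDs except Irgm1 and Igtp, and Gbp3 and Irgm2.

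Of 24 further genes of these GTPase families and their relatives, 17 were in the table and tested. At d35, 7 of the 17 rose, none fell and 10 did not pass, against 9.86% of all tested genes that rose. Those that rose were the guanylate-binding protein gene Gbp6 (4.75 ± 1.46 scaled CPM at d35 and 1.48 ± 0.36 in naive libraries), Ifi47 (38.6 ± 11.2 and 13.9 ± 3.25), Gm4951 (11.3 ± 4.35 and 1.31 ± 0.43), Gm5431 (6.86 ± 2.40 and 1.27 ± 0.16), Tgtp1, Tgtp2 and F830016B08Rik (SD, n = 3 each, limma adjusted p between 0.000496 and 0.0351). Tgtp2 was at 3.09 ± 1.12 at d35 and 0.85 ± 0.21 in naive libraries, and Tgtp1 at 1.11 ± 0.55 and 0.13 ± 0.01. Of the 50-base stretches of Tgtp1, 89.4% occur in Tgtp2, and 90.2% of those of Gbp6 occur in another annotated gene, so these values may be shared with copies. The call of Tgtp1 ended without any single library other than d35 replicate 2, and that of F830016B08Rik without naive replicate 2, naive replicate 3 or d35 replicate 3. With the replicate block, or with the naive and d35 libraries alone, the Tgtp1 call ended too.

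Gbp7 and Gbp8 did not pass at d35. Gbp7 lies between Gbp5 and Gbp3 on chromosome 3 and was at 85.8 ± 11.8 scaled CPM at d35 and 79.8 ± 2.56 in naive libraries, which gave a log2 fold change of 0.09 (limma's adjusted p = 0.552). It carries 2 GAS-like and 1 ISRE-like matches in its promoter window, as its rising neighbour Gbp5 does. Gbp8 was at 39.9 ± 5.26 and 41.0 ± 8.85 (limma adjusted p = 0.925). Gbp9, Gm12185, 9930111J21Rik1, 9930111J21Rik2, Gvin1, Irgq, Irgc1 and the atlastin gene Atl3 had log2 fold changes between -0.28 and 0.33 at d35 and did not pass. Of the 50-base stretches of Gvin1, 99.2% also occur in other genes. The share was 79.8% for 9930111J21Rik1, 53.3% for 9930111J21Rik2 and 47.6% for Gm5431, which rose. These values may therefore be shared with copies as well.

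At d15, 2 of these 17 genes rose, against none of the 9 members and 2.37% of tested genes. This count of 2 was between 0 and 5 over the alternatives, and 3 without d35 replicate 2. Ifi47, an immunity-related GTPase gene, averaged 37.1 ± 5.36 scaled CPM in the 2 d15 libraries (SD), near its d35 level, and 13.9 ± 3.25 in naive libraries (log2 fold change 1.38, limma adjusted p = 0.0191). The authors' deposited table also gives a rise of Ifi47, of 1.39 on the log2 scale with an adjusted p of 4.38e-05. Gm4951 was at 6.44 ± 1.06 at d15 and 1.31 ± 0.43 in naive libraries (1.70, limma adjusted p = 0.0172). Both calls ended without naive replicate 2, d15 replicate A or d15 replicate B, and that of Gm4951 also without naive replicate 3. The Gm4951 call ended in limma-voom too. Between the times 1 of the 17 passed, Tgtp2, against 4.59% of tested genes that rose. It was higher at d35 by 1.00 on the log2 scale (limma adjusted p = 0.0343). This count of 1 was 5 without d35 replicate 2 and 0 without any other single library except naive replicate 1. The Tgtp2 call also ended in limma-voom and with the d15 and d35 libraries alone.

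**Figure D3:**
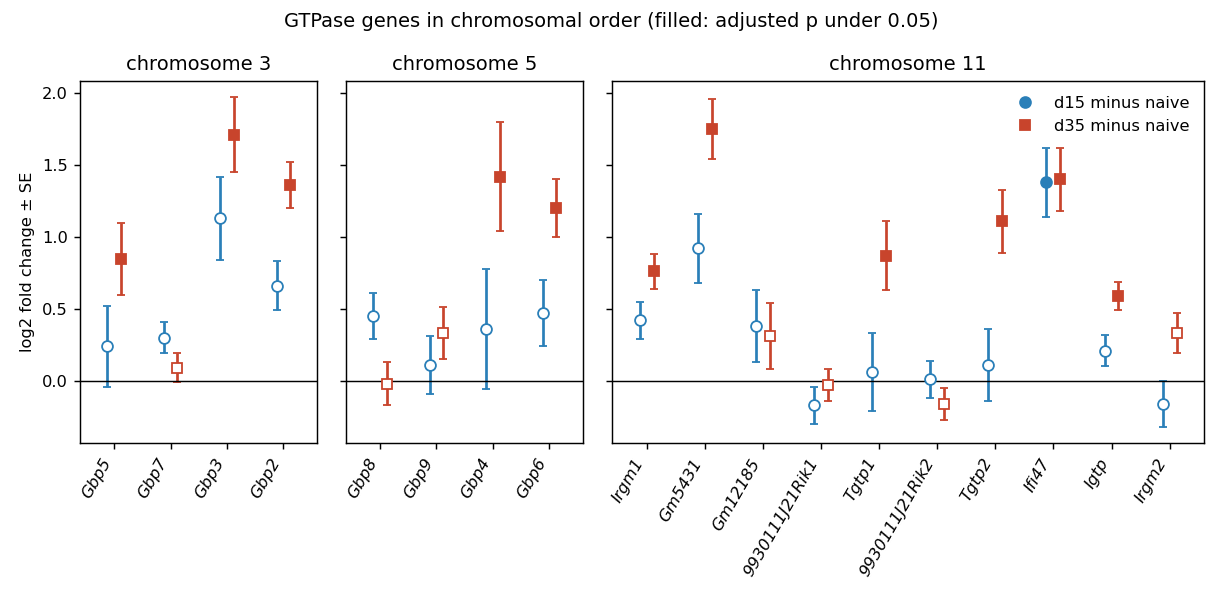
Log2 fold changes ± SE (y axis) of the GTPase genes on chromosomes 3, 5 and 11 in their chromosomal order, d15 minus naive as circles and d35 minus naive as squares, filled where the adjusted p is under 0.05. Gbp7 and Gbp8 stay near 0 at d35 beside neighbours such as Gbp3 and Gbp4 that rose, and Ifi47 is the gene on these chromosomes called at both times.

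Genes that carry the interferon gamma signal had a median log2 fold change of 0.14 at d35, beside 0.85 for the 9 members. The ligand gene Ifng was not among the genes of the deposited expression table, so its level is not known here. The receptor gene Ifngr1 averaged 559 ± 125 scaled CPM in the 2 d15 libraries (SD) and 339 ± 24.9 in naive libraries (log2 fold change 0.70, limma adjusted p = 0.0191), while at d35 it was at 369 ± 23.2. The second chain, Ifngr2, rose at d35, to 170 ± 18.1 against 129 ± 5.35 in naive libraries (0.39, limma adjusted p = 0.0137). Jak1 and Jak2 did not pass in any comparison. Against 9.86% of all tested genes, 5 of 18 tested signalling genes rose at d35 and none fell. They include the feedback inhibitor genes Socs1 (6.71 ± 2.67 at d35 and 2.25 ± 1.12 in naive libraries) and Socs3 (98.9 ± 48.9 and 29.3 ± 10.5), and Irf9 (48.9 ± 7.90 and 32.7 ± 1.33), with limma adjusted p = 0.0216, 0.0235 and 0.0135. The count of 5 was between 1, without naive replicate 2, and 6, without d35 replicate 2. It was 2 without naive replicate 1 or d35 replicate 3 and 3 without naive replicate 3 or d35 replicate 1. The calls of Irf9 and Ifngr2 ended without naive replicate 2, and those of Socs1 and Socs3 without naive replicate 1, d35 replicate 1 or d35 replicate 3, with Socs1 also lost without naive replicate 2 and Socs3 without naive replicate 3. At d15 Ptpn6, a phosphatase gene, was the member of this list that fell (455 ± 57.0 and 591 ± 16.8 in naive libraries, limma adjusted p = 0.0476). The d15 calls of Ifngr1 and Ptpn6 ended without d15 replicate B, naive replicate 2 or naive replicate 3, and that of Ptpn6 also without naive replicate 1 or d15 replicate A and in edgeR's quasi-likelihood test. In limma-voom and with no filter on low values the Ptpn6 call ended too.

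Other known targets of interferon gamma also rose at d35. Of 26 tested targets 16 rose, none fell and 10 did not pass, with a median log2 fold change of 0.54. Of all tested genes 9.86% rose and 6.32% fell. Serpina3g, a serine protease inhibitor gene, was at 23.1 ± 10.5 scaled CPM at d35 and 0.44 ± 0.34 in naive libraries (log2 fold change 3.97, limma adjusted p = 6.21e-05). The T cell chemokine gene Cxcl9 was at 26.2 ± 14.0 and 2.53 ± 0.59 (2.79, limma adjusted p = 0.000875), and Acod1, which encodes the enzyme that makes itaconate, at 6.68 ± 2.05 and 0.57 ± 0.51 (2.31, limma adjusted p = 0.000586). Ido1, the tryptophan-degrading enzyme, was at 2.72 ± 0.98 at d35 and 0.12 ± 0.13 in naive libraries (limma adjusted p = 0.00189). The count of 16 was between 11, without naive replicate 2, and 19, without d35 replicate 2. At d15, 2 of the 26 rose, Serpina3g (6.38 ± 0.43 and 0.44 ± 0.34 in naive libraries) and Cxcl9 (10.3 ± 0.63 and 2.53 ± 0.59), and Cd274, which encodes PD-L1, fell (212 ± 48.8 and 341 ± 25.1), with limma adjusted p = 0.00852, 0.0397 and 0.0191. The count of 2 that rose stood against 2.37% of all tested genes. It was 7 without d35 replicate 2, 5 without d35 replicate 3, 1 without any single naive library and 0 without d15 replicate A or d15 replicate B. All 3 of these d15 calls ended without d15 replicate B. That of Serpina3g also ended without d15 replicate A, that of Cd274 without naive replicate 2 or naive replicate 3, and that of Cxcl9 without any single d15 or naive library. In limma-voom the calls of Serpina3g and Cxcl9 ended as well. The Cxcl9 call was also lost on log2(scaled CPM + 2) and with the length trend removed.

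Over all tested genes 9.86% rose at d35 and 2.37% at d15. Targets mainly of type I interferon rose in 5 of 22 cases at d35, with a median log2 fold change of 0.62, and in 1 case at d15. At d35 they included Oas1a (36.6 ± 7.08 scaled CPM and 19.3 ± 3.29 in naive libraries), an antiviral RNA sensor gene, Bst2 (34.1 ± 4.86 and 21.9 ± 1.93), Oasl2 (13.3 ± 6.64 and 3.47 ± 1.5) and Usp18 (3.29 ± 1.07 and 1.35 ± 0.37), with limma adjusted p = 0.00776, 0.00825, 0.0109 and 0.0288. At d15 the sensor gene Ifih1 rose (53.0 ± 1.47 and 38.1 ± 1.70, limma adjusted p = 0.0266). The count of 5 was 3 without any single naive library, the call of Usp18 ended without any of these or d35 replicate 1, and the call of Ifih1 ended without naive replicate 2, naive replicate 3, d15 replicate A or d15 replicate B. With the length trend removed the calls of Bst2 and Usp18 ended, and with the replicate block that of Usp18.

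The machinery that loads these GTPases onto membranes, which comprises ubiquitin-like conjugation genes of autophagy and lipid-attaching enzymes, had a median log2 fold change of 0.08 at d35 and 0.07 at d15. Of 22 genes 1 rose at d35, against 9.86% of all tested genes. This was Gabarap (458 ± 60.9 and 346 ± 18.9 scaled CPM in naive libraries, limma adjusted p = 0.0194). At d15 Fnta, a farnesyltransferase subunit gene, rose (96.5 ± 1.14 and 73.7 ± 3.97, limma adjusted p = 0.0315) and Atg7 fell (140.0 ± 2.31 and 178 ± 10.3, limma adjusted p = 0.0476). Each of these 3 calls ended without naive replicate 2. Those of Fnta and Atg7 also ended without naive replicate 3, d15 replicate A or d15 replicate B, and those of Gabarap and Atg7 without naive replicate 1. With the length trend removed the calls of Gabarap and Fnta ended, and with scaling by total reads alone that of Fnta. The Atg7 call also ended in edgeR's quasi-likelihood test, in limma-voom and with no filter on low values.

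Of 11 genes of DNA sensing and of the inflammasomes that guanylate-binding proteins can trigger, 4 rose at d35, 1 fell and 6 did not pass. Of all tested genes 9.86% rose and 6.32% fell. Among the 4, Casp1 and Pycard are inflammasome genes, while Ifi204 and Tmem173 belong to DNA sensing. The DNA-sensing family gene Ifi204 was at 45.5 ± 7.31 at d35 and 25.4 ± 1.23 in naive libraries (limma adjusted p = 0.00312), and Tmem173, which encodes STING, at 97.4 ± 16.6 and 60.2 ± 4.28 (limma adjusted p = 0.0062). Casp1, which is also on the target list, was at 120.0 ± 4.12 and 98.6 ± 3.48, and the adaptor gene Pycard at 36.5 ± 5.83 and 25.3 ± 2.45 (limma adjusted p = 0.0194 and 0.0233). The member that fell, Nlrp3, was at 31.5 ± 1.54 at d35 and 47.7 ± 13.3 in naive libraries (limma adjusted p = 0.0437). Ifi204 also rose at d15 (59.1 ± 9.16 and 25.4 ± 1.23, limma adjusted p = 0.00278), a call that ended without d15 replicate B. The d35 calls of Casp1 and Pycard ended without naive replicate 1, naive replicate 2 or d35 replicate 1, and that of Pycard also without naive replicate 3 or d35 replicate 3. Casp1 also lost its call with scaling by total reads alone or the length trend removed, and Pycard with the replicate block. Without naive replicate 1 or naive replicate 2 the calls of Ifi204 and Tmem173 at d35 held.

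**Figure D4:**
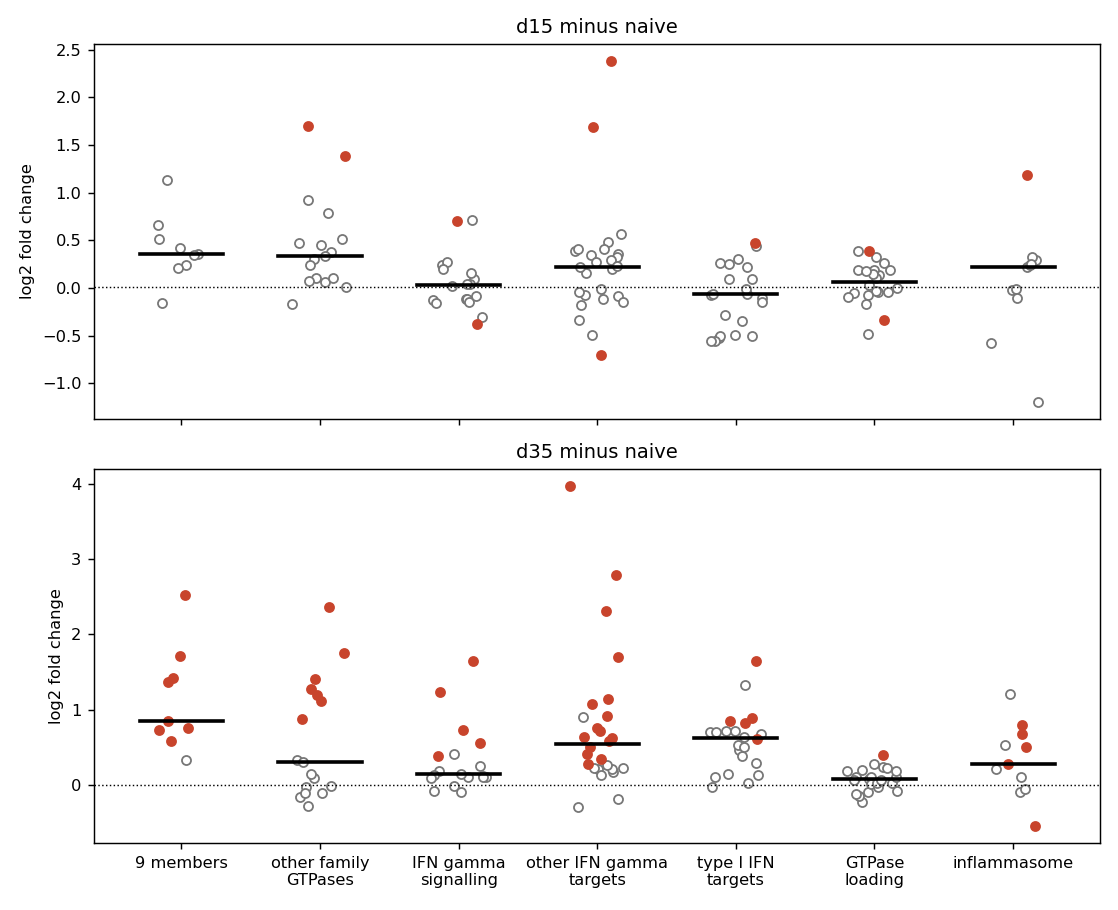
Log2 fold changes (y axis) of the 9 genes and of 6 gene lists, each point a tested gene, red where the adjusted p is under 0.05, with the list median as a bar and the median of all tested genes dotted. At d35 (lower panel) the medians are 0.85 for the 9 genes, 0.62 for type I interferon targets, 0.54 for other interferon gamma targets and 0.14 for signalling genes. At d15 (upper panel) they are 0.36, -0.06, 0.23 and 0.03 in the same order.

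Genes whose profile over the 8 libraries was among the 6 most like the mean of the 9 members, by Pearson's r of log2 values, were Pgk1 (0.993), Wfdc17 (0.990), H2-T23 (0.988), Tmem173 (0.982) and Slc31a1 (0.981). The coefficients describe these 8 libraries, which fall into groups, and mostly carry the order of the groups. H2-T23, a nonclassical MHC class I gene, was at 233 scaled CPM at d35 and 155 in naive libraries, and Pgk1, which encodes a glycolytic enzyme, at 50.3 and 34.2. Single members had r between 0.798 for Irgm2 and 0.982 for Gbp2 with a mean that includes the gene itself, which raises r by construction.

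Markers of other cell types were read beside these results. Over all tested genes, 9.86% rose and 6.32% fell at d35, and 2.37% rose at d15. Monocyte and interstitial macrophage markers rose in 8 of 11 cases at d35, with a summed level between 813 and 1134 scaled CPM in d35 libraries and between 531 and 733 in naive libraries. This count of 8 was 5 without naive replicate 2 and 3 when genes had to reach 1 scaled CPM in all 8 libraries. Within d35 the sum was lowest, 813, in replicate 2, the library in which the 9 members were also lowest. Their part in the result was not tested. In such sorted bulk samples, more RNA per cell and more cells of a type cannot be told apart. T and natural killer cell markers, of cells that make interferon gamma, summed over 14 genes to between 10.2 and 11.8 scaled CPM in naive libraries, between 6.36 and 6.52 in d15 and between 6.63 and 11.3 in d35 libraries, and none of the 4 that could be tested passed. Endothelial markers, of a cell type that also expresses these GTPases, fell in 7 of 12 cases at d35, with sums between 175 and 223 in d35 and between 277 and 351 in naive libraries. Of 9 epithelial and tumor cell markers, 3 keratin genes rose at d35 and Epcam fell. Krt8 was at 15.0 ± 4.43 scaled CPM at d35 and 0.262 ± 0.125 in naive libraries, Krt18 at 14.6 ± 6.40 and 0.214 ± 0.108, and Krt7 at 13.0 ± 4.55 and 0.526 ± 0.136 (SD, n = 3 each), with log2 fold changes of 3.63, 3.59 and 3.14. All 3 of these keratin genes were lowest, among the d35 libraries, in replicate 2, as the 9 members were. The sum of the 9 markers was carried by Krt19 (between 815 and 1047 scaled CPM at d35 and between 1027 and 1090 in naive libraries), which did not pass, and lay between 1217 and 1336 at d35 and between 1431 and 1443 in naive libraries. B cell markers fell in 3 of 4 cases, fibroblast markers in 2 of 6, and no dendritic cell marker of 5 passed. Neutrophil markers rose in 1 of 5 cases, with sums between 135 and 267 at d35 and between 175 and 202 in naive libraries. Dissociation and stress genes rose in 3 of 15 cases and fell in 1 at d35, and rose in 4 at d15, and none of 6 mitochondrially encoded mRNAs passed. No more than 1 marker of a list had 0 reads in a library, which was so in the dendritic cell, T and natural killer cell, neutrophil and fibroblast lists. The part of these in the results was not tested.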

How the data were processed

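RNA from 20000 sorted macrophages was made into cDNA from 1 ng with a low-input SMART-Seq kit and sequenced, per the labels' protocols. The submitters' processing notes name STAR 2.5, mm10 and edgeR. No source used here names the read counter, its annotation or its use of strand, so overlapping or near-identical genes are uncertain. The deposited table holds a scaled signal per gene, the reads plus 0.5 over a scaled library size plus 1, written as CPM, from which 100% of values gave whole reads within 0.001. Its d15 columns carry numbers unlike the d15 titles and were assigned to the group only, as replicates A and B. The authors' deposited d15 comparison gives a log2 fold change, a test score and a p-value for each gene.

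limma 3.58.1 (R 4.3.3, trend, residual df 5, prior df 5.72) was run on log2(scaled CPM + 1) with group as the only term, over the 11273 genes that reached 1 scaled CPM in 2 or more libraries. Calls were made at a Benjamini-Hochberg adjusted p of 0.05. There were up to 20 alternatives, among them edgeR 4.0.16 and DESeq2 1.42.0 on the recovered reads. Positions and exon lengths come from GENCODE M21 (GRCm38, the build named mm10) and promoters from RefSeq. The members, lists and tests were chosen with earlier results of these data known, and the counts of lists under each alternative were added after seeing the data. The text names all members, all tested family GTPases, selected receptor and kinase genes, up to 4 genes of each other pathway list and comparison with the smallest adjusted p, and the 6 genes most alike among those whose log2 values averaged 3 or more, except items that are not reported here. Nlrp3 and the single cell type markers lie outside this rule and were named after their values were seen.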

Additional observations from a re-analysis of the deposited data

Results flagged for a closer look

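The d35 and d15 effects relative to naive macrophages differed by limma's test of d35 against d15 for 2 of the 9 genes, Gbp2 (log2 difference 0.70) and Iigp1 (2.01). Among the other named genes the d35 effect was the higher one for Tgtp2 (1.00), Irf8 (0.46), Stat3 (0.26), Serpina3g (1.59), Acod1 (2.08), Ido1 (1.81), Tap1 (0.60), Icam1 (0.72), Usp18 (1.34), Cmpk2 (1.26) and Il1b (2.39). It was the lower one for Ifngr1 (-0.58) and Fnta (-0.38). Of these 15 differences, those of Acod1 and Ido1 were called under every alternative run in which the gene was tested, and all others ended under at least 1. Without d15 replicate B, 13 of these 15 differences no longer passed, and Acod1 and Ido1 still did.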

How the results depend on the processing

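At d35 against naive, 6 members were called under all 20 alternatives in which they were tested, and only Gbp4, Gbp5 and Irgm2 changed sides. Leaving out single libraries gave between 6 and 9 members and 635 to 2294 genes at d35, between 0 and 4 members and 12 to 1079 genes at d15, and between 0 and 7 members and 193 to 1052 genes between the times, where 8, 0 and 2 members and 1824, 493 and 833 genes were reported. With DESeq2, 3 members and 1451 genes were called at d15 and 4 and 1368 between the times. With only the libraries of the groups compared, these were 4 and 1179 at d15 and 0 and 421 between the times. A filter on values in all 8 libraries, which drops Iigp1, gave 1 member at d15 and 1 between the times, limma-voom gave 0 between the times, and removing a length trend left 328 genes at d15. The log2 fold change of Gbp4 at d15 was between -0.03, without naive replicate 1, and 0.78, without naive replicate 2, and that of Irgm2 between -0.34, without d15 replicate A, and 0.01, without d15 replicate B. The cause was not tested. With the replicate number of naive and d35 libraries as a block, 7 members and 1460 genes were called. Deviations of same-numbered libraries correlated at -0.007, -0.046 and 0.147, so the numbers were not taken to pair libraries. Iigp1, Gbp4 and Gbp5 had the fewest reads of the members, from 22, 40 and 64 in their lowest libraries.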
